A study of Mus musculus with 18 samples.

Results

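The genes described here are 41 genes of the type I interferon response, named by symbol, of the 13043 genes in the deposited table. All 41 were in the table and all 41 passed the filter on low counts, so that each of them was tested. They were measured in 18 libraries of brain macrophages sorted from irradiated mice that had been given donor bone marrow. The question the samples put is how macrophages of host, monocyte and other bone marrow origin differ within the brain and between the brain and its leptomeninges.

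Type I interferons (interferon alpha and beta) bind a receptor made of the Ifnar1 and Ifnar2 products, and receptor-bound kinases then phosphorylate transcription factors of the STAT family, among them STAT2. STAT2 joins IRF9 in a complex that binds a short DNA element, the interferon-stimulated response element, in front of many genes whose products restrict viruses, sense foreign nucleic acid or tune the response itself. Many of the same genes also answer to interferon gamma, through another element, the gamma-activated site. In macrophages a low level of this response is present without infection, and microglia, the macrophages of the brain tissue, show more of it in ageing and disease.

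The recipients were wild-type C57BL6 mice, lethally irradiated and then transplanted with marrow that carried Ms4a3-Cre, R26-TdTomato and Cx3cr1-gfp. Ms4a3-Cre is active in granulocyte-monocyte progenitors, so that the TdTomato reporter marks monocytes and their progeny, and the gfp allele labels cells that use the Cx3cr1 gene. Cells were collected 32 weeks later. The groups were sorted by colour and site. Host microglia had no colour (4 libraries), monocyte-derived microglia had GFP and TdTomato (4 libraries), and HSC-derived microglia, named after haematopoietic stem cells, had GFP without TdTomato (4 libraries). Monocyte-derived leptomeningeal macrophages (4 libraries) and HSC-derived leptomeningeal macrophages (2 libraries) were sorted by the same colours from cells washed off the brain surface. All groups share the irradiation and the graft, and the 4 donor-derived groups also share the gfp allele of Cx3cr1, which host cells lack. There was no leptomeningeal host group and no unirradiated group. The labels do not say whether libraries of a group came from separate mice, so p-values measure the spread between these libraries, which may be partly technical.

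RNA was counted by bulk MARS-seq, which reads the 3′ end of polyadenylated transcripts and counts unique molecular identifiers (UMIs). Libraries held 154727 to 2440234 counts. Levels are given as CPM (counts scaled to a library of a fixed size) after TMM scaling of library totals, and 3 counts were worth 1.05 to 23.1 CPM, depending on the library. The libraries under 350000 counts were 3, HSC-derived microglia replicates 3 and 4 (264795 and 317872 counts) and HSC-derived leptomeningeal replicate 2 (154727 counts). Ribosomal protein genes took 14.1%, 13.4% and 19.1% of the counts of these 3, against 8.68% and 8.89% in the other HSC-derived microglia and 15.2% in the other HSC-derived leptomeningeal library. Calls of members that were lost when all 3 were left out are given with and without them.

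The sort labels were set against fixed marker genes. Summed microglia markers (P2ry12, Tmem119, Sall1 and 7 others) lay at 25328 to 29055 CPM in host microglia, 12667 to 13441 in monocyte-derived and 10540 to 12567 in HSC-derived microglia, and at 3482 to 5407 and 3058 to 3382 in the 2 leptomeningeal groups. Border macrophage markers (Mrc1, Pf4, Lyve1 and 7 others) ran the other way, from 41.5 to 51.4 CPM in host microglia through 1890 to 1969 and 2016 to 2732 in donor-derived microglia to 5827 to 7150 and 8680 to 11880 in the leptomeningeal groups. In bulk RNA, fewer cells of a type and less RNA per cell cannot be told apart.

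The DNA element through which type I interferon acts is shown here for 5 members with library values below. Each of the 5 carries it upstream of its start. RefSeq promoter windows (GRCm38.p6, 250 bases before to 50 after the start, 300 in all) matched 31 of the 41 members; Ifi204, Ifi27l2a, Ly6e, Mx1, Oas2, Parp14, Parp9, Rtp4, Usp18 and Zbp1 were not matched. The core of the element was searched as GAAANNGAA on both strands, and neighbouring matches may overlap. Capitals mark the matches. Each stretch is read 5′ to 3′ on the gene's own strand, so that a match on the opposite strand appears as its reverse complement:
Stat2, plus strand, chr10:128270257-128270336: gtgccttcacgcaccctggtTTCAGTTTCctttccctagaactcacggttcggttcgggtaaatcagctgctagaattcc
Isg15, minus strand, chr4:156200849-156200918: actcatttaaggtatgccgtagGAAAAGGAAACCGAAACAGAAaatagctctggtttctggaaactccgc
Bst2, minus strand, chr8:71537537-71537622: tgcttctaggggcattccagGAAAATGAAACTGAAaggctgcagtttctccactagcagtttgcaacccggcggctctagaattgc
Ifitm2, minus strand, chr7:140955992-140956061: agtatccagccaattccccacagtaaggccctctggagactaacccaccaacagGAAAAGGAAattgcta
Ifit3, plus strand, chr19:34583354-34583473: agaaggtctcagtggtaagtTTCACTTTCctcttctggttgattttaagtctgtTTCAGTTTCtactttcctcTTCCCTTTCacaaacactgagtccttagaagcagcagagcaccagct

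Isg15 held 3 overlapping matches that began 78, 72 and 66 bases before the start, and Bst2 held 2, at 130 and 124. Ifit3 held 3 separate matches on the opposite strand, at 155, 121 and 102 bases. Ifitm2 and Stat2 held 1 match each in the stretch shown, at 46 and 221 bases. Over the 31 matched members, 20 (64.5%) held the core in the window, and in 17 of them at least 1 match lay wholly upstream of the start, whereas 9.76% of 27025 genes in the RefSeq table held it. The gamma-activated site, searched as TTCNNNGAA, was in the windows of 9 of the 31 (29.0%) and of 9.55% of all genes. Irf7, Irf9, Oasl2, Xaf1, Slfn2, Ifi47, Samhd1, Lgals3bp, Isg20, Ifit2 and Ifi35 had no core match in this window. A match is a run of letters and was not tested for binding.

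Across the 5 groups the 41 genes were lowest in host microglia and highest in the leptomeninges for the most part. The mean level was lowest in host microglia for 31 of the 41, in monocyte-derived microglia for 4, in HSC-derived microglia for 4 and in HSC-derived leptomeningeal macrophages for 2. It was highest in HSC-derived leptomeningeal macrophages for 27, in monocyte-derived leptomeningeal macrophages for 12 and in HSC-derived microglia for 2. These orders are descriptive, and neighbours in them often overlapped. The same orders were not counted over all genes. Means of HSC-derived leptomeningeal macrophages rest on 2 libraries, of which replicate 2 held 154727 counts, the fewest of all.

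**Figure D1:**
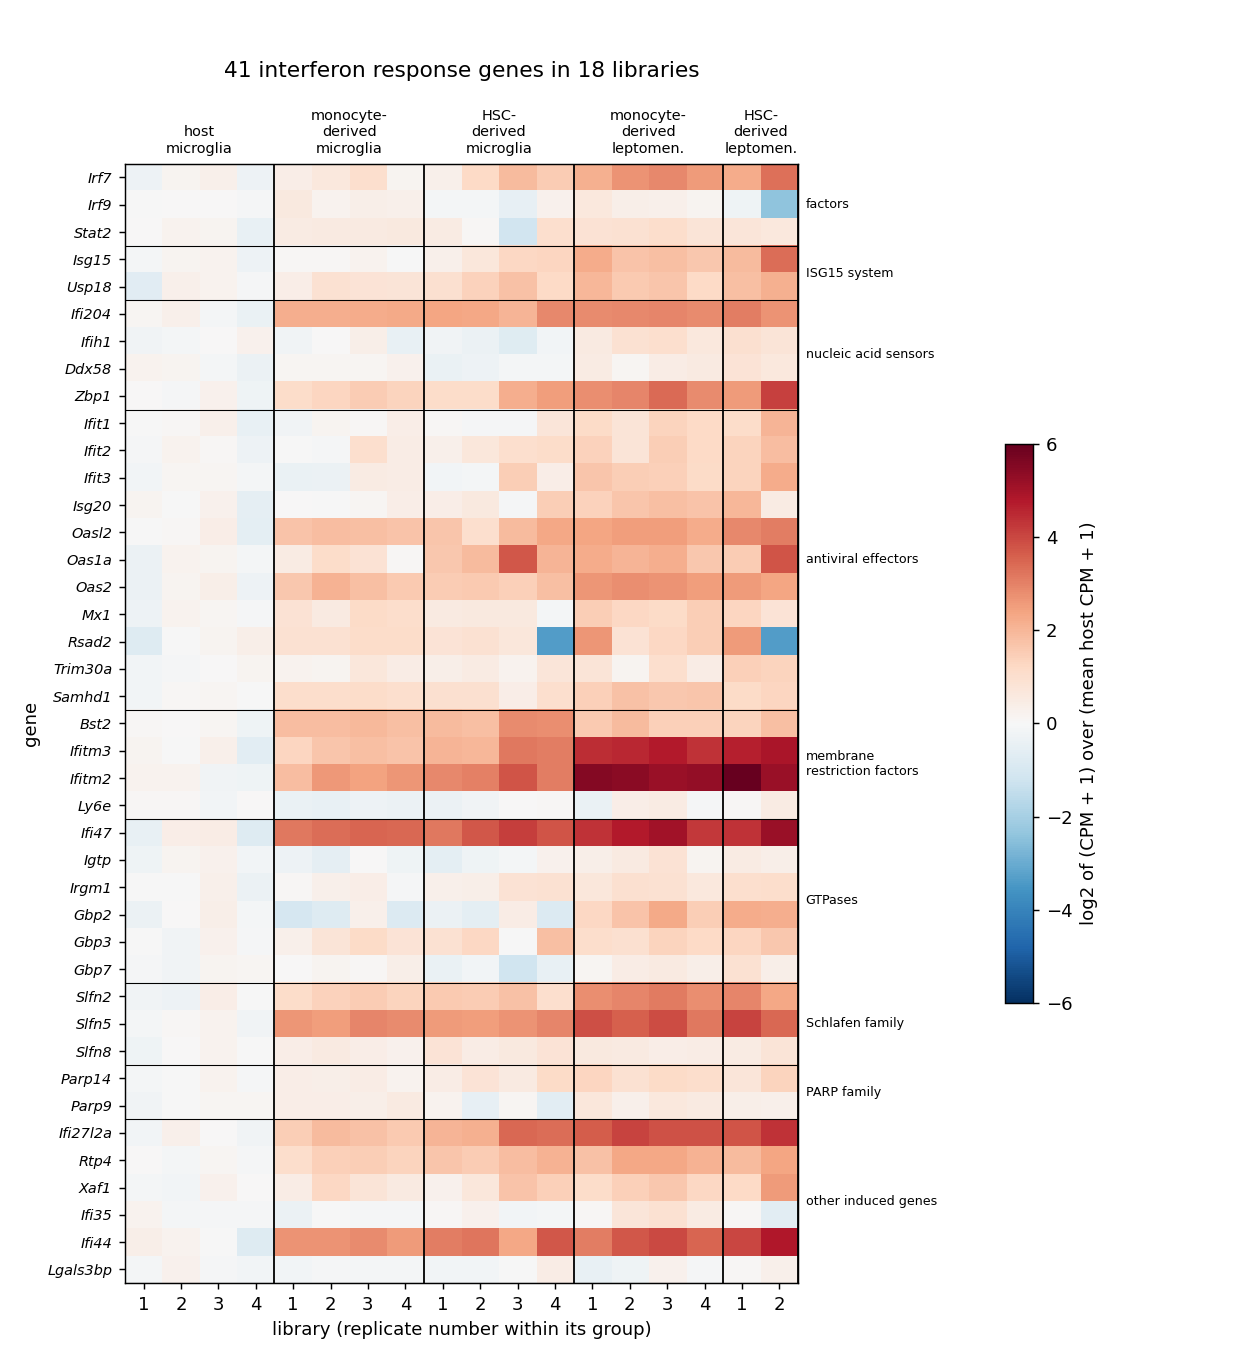
Heat map of the 41 genes (rows, grouped by role) in the 18 libraries (columns, by group and replicate number). Colour is the log2 of CPM plus 1 over the mean host CPM plus 1, so white is the host level, red is above it and blue below, with the scale ending at 6; Ifi47, Ifitm2, Ifitm3 and Slfn5 are red in every donor-derived library, while Lgals3bp and Irf9 stay near white in most.

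Monocyte-derived microglia differed from host microglia in 21 of the 41 genes, and each of the 21 was higher in the monocyte-derived cells (edgeR quasi-likelihood test, Benjamini-Hochberg adjusted p under 0.05 over 10597 genes, two-sided). Of all genes tested, 15.1% were called higher in this comparison and 15.1% lower, and none of the 41 was called lower. The median log2 fold change was 0.56 over the 41 and 0.01 over all genes. HSC-derived microglia had 24 of the 41 higher than host microglia and none lower, against 16.3% of all genes higher and 13.1% lower, with medians of 0.73 and 0.00. Called members rose by 0.39 to 3.48 on the log2 scale in the monocyte-derived cells and by 0.54 to 3.78 in the HSC-derived cells. Both comparisons use the same 4 host libraries, so their values are set side by side and are not independent of each other. The 41 genes were chosen with earlier results of these data known, which limits how these counts compare with shares of all genes.

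The difference moved with cell identity markers: the border macrophage markers given above were higher and the microglia markers lower in both donor-derived groups, and their part in the interferon gene differences was not tested. Summed T and NK cell markers (13 of 14 in the table) lay at 30.1 to 54.9 CPM in host, 122 to 176 in monocyte-derived and 0 to 168 in HSC-derived microglia. In HSC-derived microglia replicate 3, where 3 counts are worth 15.4 CPM, all 13 were at 0. Monocyte markers (9 of 10 in the table, 8 tested) summed to 73.7 to 115 CPM in host, 189.6 to 277 in monocyte-derived and 164 to 377 in HSC-derived microglia, with 5 and 3 of the 8 called higher than in host and none lower. The part of T and NK cells and of monocytes was not tested. Neutrophil markers (7 of 10 in the table) summed to at most 0.67 CPM in host and at most 52.7 in donor-derived microglia. Plasmacytoid dendritic cells are known for making much type I interferon; of their markers 8 of 10 were in the table, summing to 1278 to 1441 CPM in host, 1227 to 1360 in monocyte-derived and 892 to 1245 in HSC-derived microglia, mostly from Irf8, Blnk and Tcf4, which microglia also express. Ly6d was at 0 in all 12 microglia libraries. Endothelial markers (8 of 10 in the table) summed to 410.1 to 477, 394 to 463 and 451 to 733 CPM in the same order of groups, and markers of astrocytes, neurons and oligodendrocytes (5 of 10) to 193 to 239, 68.7 to 86.1 and 64.6 to 292.

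Membrane restriction factors, which stop viruses at the cell surface or in endosomes, had 3 of 4 members higher in each donor-derived group. Bst2 encodes tetherin, which ties budding virions to the cell. It was at 489.6, 476, 515 and 389 CPM in the 4 host libraries, 1700, 1713, 1832 and 1627 in monocyte-derived and 1726, 1660, 3366 and 3213 in HSC-derived microglia (log2 fold change against host 1.88 ± 0.20, adjusted p = 3.12e-09 in the former, 2.41 ± 0.21, adjusted p = 2.44e-11 in the latter, here and below with its standard error). Host and donor-derived libraries did not overlap, and the 2 highest values belong to the 2 shallow HSC-derived libraries.

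Ifitm3 and Ifitm2 encode small membrane proteins that block virus entry; they lie on chromosome 7 at 141009586 to 141010770 and 140954837 to 140955987 (GRCm38, minus strand). Ifitm3 had 47.2, 41.4, 52 and 26.1 CPM in host microglia, 103, 132, 149 and 137 in monocyte-derived and 177, 166, 384 and 360.1 in HSC-derived microglia (1.62 ± 0.23, adjusted p = 3.60e-06 and 2.60 ± 0.25, adjusted p = 4.40e-09). For Ifitm2 the host libraries held 7.87, 7.73, 5.62 and 5.36 CPM, from 11, 17, 16 and 8 counts, the monocyte-derived 26.5, 44.7, 39.9 and 47.1 and the HSC-derived 55.3, 60.5, 102 and 62.6 (2.55 ± 0.25, adjusted p = 2.40e-10 and 3.29 ± 0.27, adjusted p = 7.19e-12). Every donor-derived library was above every host library for both genes. Without the shallow libraries the HSC-derived value of Ifitm3 was 2.02, adjusted p = 2.90e-10. Ly6e, which encodes a GPI-anchored surface protein that restricts coronavirus entry, was the exception in this set, with 3379 ± 234 CPM (SD, n = 4) in host against 2608 ± 122 and 3136 ± 440.0 (n = 4 each) in the donor-derived cells, and passed the test in neither (-0.37, adjusted p = 0.121 and -0.11, adjusted p = 0.709).

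Among 4 nucleic acid sensors, Ifi204 and Zbp1 rose in both donor-derived groups and the RNA helicases did not pass the test in either. Ifi204 encodes a DNA sensor, and its levels were 42.9, 48.7, 36.9 and 29.5 CPM in host, 183, 179.6, 186 and 196 in monocyte-derived and 207, 202, 164 and 297 in HSC-derived microglia, a 4.68-fold and a 5.45-fold difference (2.23 ± 0.16, adjusted p = 1.19e-13 and 2.45 ± 0.17, adjusted p = 8.57e-14). Zbp1, a sensor of Z-form nucleic acid that can start necroptosis, had 15, 14.1, 18.3 and 12.1 CPM in host, 32.9, 38.1, 44.1 and 39.1 in monocyte-derived and 32.6, 33, 71.7 and 90.02 in HSC-derived microglia (1.33 ± 0.30, adjusted p = 0.00132 and 1.64 ± 0.36, adjusted p = 0.00128). Groups did not overlap with host for either gene. Ddx58, which encodes RIG-I, had 34 ± 5.89, 37.9 ± 1.90 and 28.8 ± 2.75 CPM (SD, n = 4 each; 0.16, adjusted p = 0.496 and -0.29, adjusted p = 0.345). Ifih1, which encodes MDA5, had 26.4 ± 3.72, 25.6 ± 6.54 and 20.5 ± 3.65 CPM (-0.04, adjusted p = 0.906 and -0.32, adjusted p = 0.399).

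Of the 3 transcription factors of the pathway, 1 passed in each comparison. Irf7, the factor that amplifies interferon production, had 36.5, 50.5, 55.8 and 36.2 CPM in host, 59.9, 69.5, 89.7 and 49.5 in monocyte-derived and 55.3, 103, 169 and 129 in HSC-derived microglia. It passed the test in the HSC-derived cells (1.17 ± 0.32, adjusted p = 0.0102), where 1 library lay within the host range, and not in the monocyte-derived (0.56 ± 0.29, adjusted p = 0.159). Without the 3 shallow libraries the former value was 0.79, adjusted p = 0.103. Stat2 had 70.2, 81.4, 77.2 and 50.9 CPM in host and 98.6, 102, 103 and 105 in monocyte-derived microglia (0.53 ± 0.17, adjusted p = 0.0183). In HSC-derived microglia its values spread from 30.7 to 141 CPM, as 97.8, 72.8, 30.7 and 141, across the host range (0.31 ± 0.21, adjusted p = 0.282). Without host replicate 4, the lowest host library, the Stat2 value in monocyte-derived cells was 0.43, adjusted p = 0.0831. Irf9, the DNA-binding partner of STAT2, had 85.9, 89.6, 90.2 and 83.7 CPM in host, 129.7, 101, 110.0 and 107 in monocyte-derived and 80.8, 81.1, 61.5 and 106 in HSC-derived microglia and passed in neither (0.36, adjusted p = 0.0772 and -0.08, adjusted p = 0.786).

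Of the 2 genes of the ISG15 system, both passed in HSC-derived microglia and Usp18 alone in monocyte-derived microglia. Isg15, the ubiquitin-like modifier that is among the most strongly induced products of interferon treatment, was at 55.1, 66.4, 69.5 and 47.5 CPM in host and 61.7, 62.9, 69.4 and 59.1 in monocyte-derived microglia (0.07 ± 0.25, adjusted p = 0.873), with the ranges overlapping. In HSC-derived microglia it was at 75.1, 97.6, 143 and 149 CPM (0.83 ± 0.27, adjusted p = 0.0255), above all host libraries. That call was lost without HSC-derived replicate 3 (0.72, adjusted p = 0.0828) and without replicate 4 (0.68, adjusted p = 0.0891). Usp18, the protease that removes ISG15 and dampens the receptor, had 13.6, 27.7, 26 and 20.8 CPM in host, 29.4, 43, 39.2 and 38.3 in monocyte-derived and 43.9, 59.1, 76.9 and 50.9 in HSC-derived microglia and passed in both (0.70 ± 0.21, adjusted p = 0.00826 and 1.26 ± 0.24, adjusted p = 9.96e-05).

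Of 11 genes grouped as antiviral effectors, 4 were higher in monocyte-derived and 5 in HSC-derived microglia. The 2′-5′ oligoadenylate synthetase family, whose active members make the messenger that activates RNase L, rose for Oasl2 and Oas2 in both. Oasl2 had 17.9, 19.1, 24.2 and 12.1 CPM in host, 62.8, 69.5, 67.3 and 63 in monocyte-derived and 59.5, 38.5, 71.7 and 93.9 in HSC-derived microglia (1.79 ± 0.19, adjusted p = 2.14e-09 and 1.65 ± 0.23, adjusted p = 7.79e-07), with no overlap between host and donor-derived libraries. Oas2 had 21.9 ± 5.54 CPM in host against 77.9 ± 13.5 and 67.4 ± 7.50 (SD, n = 4 each; 1.77, adjusted p = 1.97e-10 and 1.55, adjusted p = 2.19e-07). Samhd1, which depletes the nucleotides that viruses need, had 134 ± 12 against 276 ± 7.78 and 242 ± 44.9 CPM (1.04, adjusted p = 1.57e-07 and 0.87, adjusted p = 1.32e-05). Oas1a rested on few counts, 3, 8, 10 and 4 in host, 8, 9, 9 and 4 in monocyte-derived and 8, 10, 10 and 4 in HSC-derived microglia, equal to 2.15, 3.64, 3.51 and 2.68, 4.61, 7.45, 6.31 and 3.19 and 11.3, 13.7, 51.2 and 15.7 CPM (0.76, adjusted p = 0.239 and 2.50, adjusted p = 0.000123).

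None of the 3 Ifit genes, which lie beside one another on chromosome 19 and encode proteins that bind foreign RNA ends, passed in monocyte-derived microglia, and 1 passed in HSC-derived microglia. Ifit3 had 20.8, 25.9, 26 and 22.1 CPM in host, 17.9, 18.2, 33.6 and 32.7 in monocyte-derived and 21.3, 22, 66.6 and 31.3 in HSC-derived microglia, overlapping ranges (0.08 ± 0.23, adjusted p = 0.843 and 0.25 ± 0.30, adjusted p = 0.596). Ifit1 had 16.1 ± 3.70, 17.6 ± 3.20 and 18.7 ± 5.84 CPM (SD, n = 4 each; 0.07, adjusted p = 0.932 and 0.10, adjusted p = 0.919). Ifit2 passed in HSC-derived microglia (0.69, adjusted p = 0.0469), a call that was lost in 9 of 16 alternative settings, among them leaving out host replicate 1, 3 or 4 or HSC-derived replicate 2, 3 or 4 (adjusted p from 0.062 to 0.131) and leaving out the shallow libraries (0.51, adjusted p = 0.227). Mx1, a gene of the dynamin-like GTPase family, passed in monocyte-derived microglia (32.9 ± 5.95 against 17 ± 2.68 CPM, log2 fold change 0.93, adjusted p = 0.000252). Rsad2, which encodes viperin, did not pass in either, and had 17, 17.9, 15.4 and 0 CPM in HSC-derived microglia, from 12, 13, 3 and 0 counts. Isg20, an exonuclease gene, and Trim30a, a gene of the TRIM family, did not pass in either comparison, with log2 fold changes of 0.12 to 0.66.

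Ifi47 had the largest fold change of the 41 against host microglia in both comparisons. It is an immunity-related GTPase gene on chromosome 11 (49076587 to 49096974, plus strand) and was at 2.86, 5.91, 5.97 and 2.01 CPM in host, from 4, 13, 17 and 3 counts, at 45, 51.3, 58.2 and 55.9 in monocyte-derived and at 45.3, 68.7, 92.2 and 70.4 in HSC-derived microglia, 11.2-fold and 13.7-fold higher (3.48 ± 0.28, adjusted p = 4.68e-12 and 3.78 ± 0.32, adjusted p = 2.21e-11). The other 5 GTPase genes did not follow it to this extent. Gbp3, a guanylate-binding protein gene, rose in both (0.79, adjusted p = 0.00175 and 1.15, adjusted p = 0.000133), and Irgm1 rose in HSC-derived microglia (0.54, adjusted p = 0.0204), a call lost without the shallow libraries (0.33, adjusted p = 0.202) and without host replicate 4 or HSC-derived replicate 3 or 4 (adjusted p from 0.0552 to 0.0801). Gbp2 had 11.5, 15, 19 and 13.4 CPM in host, 6.92, 8.28, 18.2 and 7.98 in monocyte-derived and 11.3, 9.62, 20.5 and 7.83 in HSC-derived microglia, with log2 fold changes below 0 that did not pass (-0.55 ± 0.30, adjusted p = 0.165 and -0.43 ± 0.40, adjusted p = 0.457). Igtp and Gbp7 passed in neither.

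Schlafen genes, a family that limits translation and proliferation in immune cells, rose for all 3 listed members in both comparisons. Slfn5 had 4.29, 5.00, 5.62 and 4.02 CPM in host, 35.2, 31.4, 42 and 39.9 in monocyte-derived and 32.6, 31.6, 35.9 and 43.1 in HSC-derived microglia (2.90 ± 0.24, adjusted p = 5.53e-12 and 2.78 ± 0.30, adjusted p = 4.86e-09). Slfn2 had 38.7, 35.9, 58.3 and 44.2, 96.8, 118, 131 and 114 and 135, 128, 154 and 90.02 CPM in the same order (1.36 ± 0.17, adjusted p = 5.44e-08 and 1.50 ± 0.19, adjusted p = 8.03e-08). Neither gene's host libraries overlapped with donor-derived ones. Slfn8 differed less (0.39, adjusted p = 0.029 and 0.67, adjusted p = 0.00133), and its monocyte-derived call was lost in 6 of 16 alternatives, among them leaving out host replicate 1 or 2 or monocyte-derived replicate 1, 2 or 3 (adjusted p from 0.0522 to 0.102). The PARP family gene Parp14 rose in HSC-derived microglia (0.73, adjusted p = 0.00102) and Parp9 in monocyte-derived microglia (0.42, adjusted p = 0.0378), the latter lost in 9 of 16 alternatives, among them leaving out host replicate 1 or 2 or any monocyte-derived library (adjusted p from 0.0545 to 0.097).

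Of the 6 remaining induced genes, 4 rose in both donor-derived groups. Ifi27l2a, which encodes a small mitochondrial membrane protein, had 73, 100.5, 82.9 and 71 CPM in host, 233, 303, 281 and 247 in monocyte-derived and 340.1, 357, 897 and 845 in HSC-derived microglia (1.69 ± 0.26, adjusted p = 1.85e-05 and 2.84 ± 0.27, adjusted p = 2.47e-08). Ifi44 had 7.16, 6.37, 5.27 and 2.68 CPM in host, 39.8, 40.6, 44.8 and 36.7 in monocyte-derived and 52.4, 57.7, 30.7 and 82.2 in HSC-derived microglia (2.88 ± 0.26, adjusted p = 6.87e-11 and 3.36 ± 0.30, adjusted p = 5.67e-11). The donor-derived libraries again lay above all host libraries for both genes. Without the shallow libraries the HSC-derived value of Ifi27l2a was 2.08, adjusted p = 4.67e-14. Rtp4, which encodes a receptor-transporting protein, had 42.1 ± 3.08 against 108 ± 14 and 148 ± 25.2 CPM (SD, n = 4 each; 1.34, adjusted p = 2.80e-08 and 1.76, adjusted p = 1.00e-09), and Xaf1, a pro-apoptotic gene, rose less (0.77, adjusted p = 0.0107 and 0.89, adjusted p = 0.02). The Xaf1 call was lost without monocyte-derived replicate 2 in the former comparison (0.59, adjusted p = 0.075), and in the latter without HSC-derived replicate 3 (0.71, adjusted p = 0.0748), replicate 4 (0.75, adjusted p = 0.079), host replicate 2 (0.83, adjusted p = 0.0504) or the shallow libraries (0.48, adjusted p = 0.215). Ifi35 and Lgals3bp passed in neither, and Lgals3bp, a secreted glycoprotein gene, had 364, 471, 378 and 353 CPM in host, 349, 369, 365 and 358 in monocyte-derived and 353, 348, 389 and 528 in HSC-derived microglia (-0.12, adjusted p = 0.605 and 0.03, adjusted p = 0.924).

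**Figure D2:**
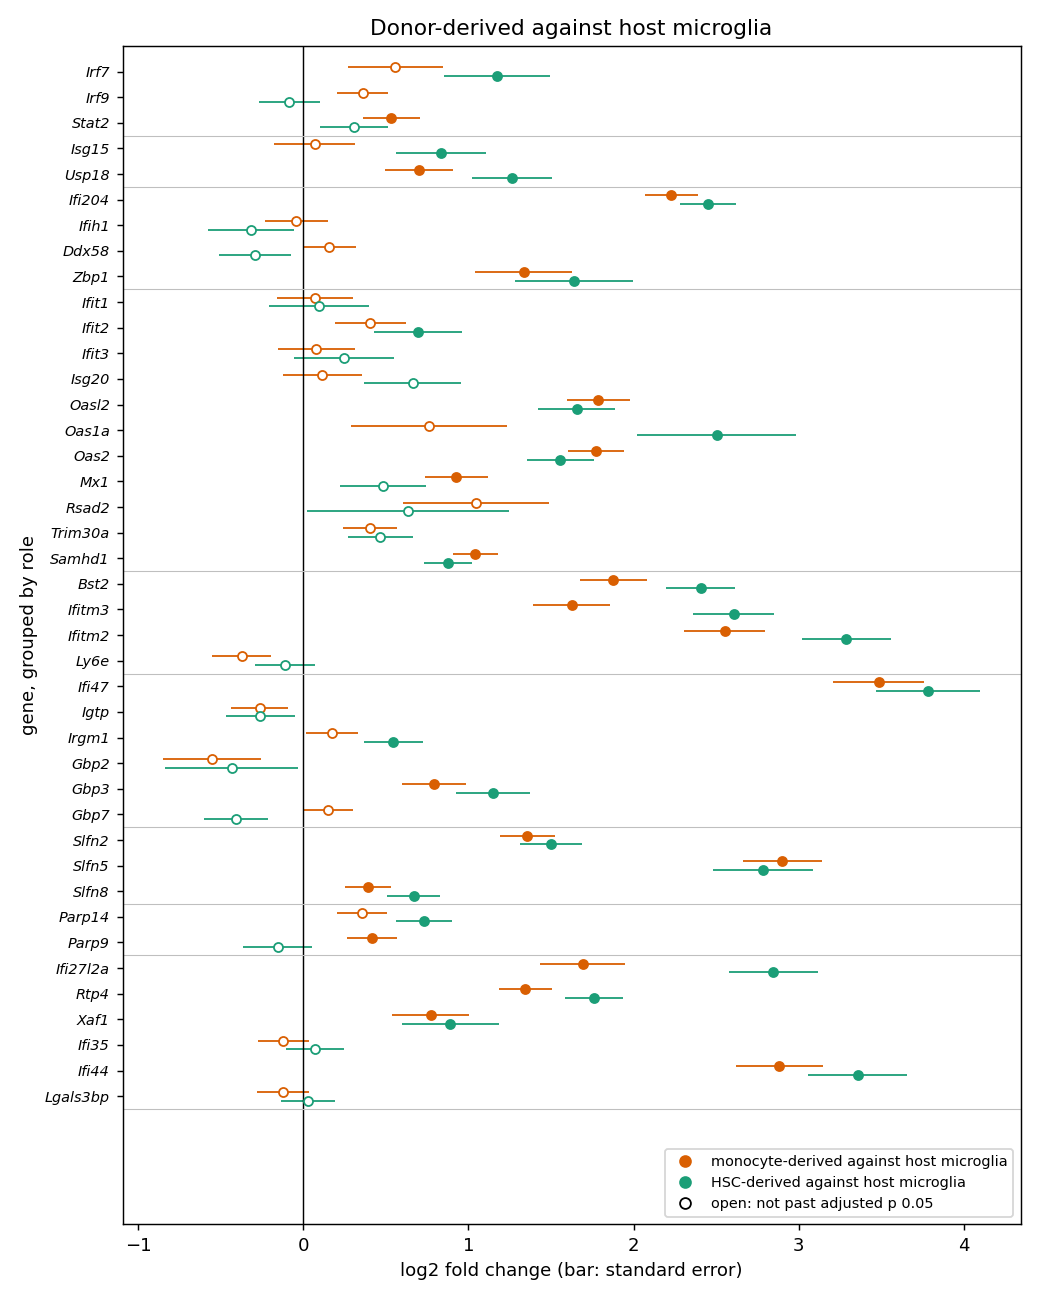
Log2 fold change against host microglia (horizontal axis, bars are standard errors) of the 41 genes (vertical axis, by role) in monocyte-derived and HSC-derived microglia. Filled points passed the adjusted p threshold of 0.05 and open points did not; all 21 and 24 filled points lie to the right of 0, with Ifi47 farthest at 3.48 and 3.78.

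Without the 3 shallow libraries the monocyte-derived cells had 25 members higher and 1 lower than host, and the HSC-derived cells 20 higher and none lower. With library totals in place of TMM scaling the counts were 18 higher and 1 lower, and 18 higher and 3 lower (Ly6e in the former, Ly6e, Gbp7 and Igtp in the latter). The 3 calls lost were Stat2, Slfn8 and Parp9 in the former, and the 6 in the latter Isg15, Ifit2, Irgm1, Slfn8, Parp14 and Xaf1. The median log2 fold change of all genes was 0.03 and 0.00 without the shallow libraries, and -0.02 and -0.28 with library totals. Shares of all genes called were not counted in these settings.

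Monocyte-derived and HSC-derived microglia differed in 3 of the 41 genes, each lower in the monocyte-derived cells, against 1.76% of all genes called lower and 0.123% called higher. The median log2 fold change of the 41 was -0.19 and that of all genes 0.02. Ifi27l2a had a log2 fold change of -1.15 ± 0.25, adjusted p = 0.0201, Ifitm3 of -0.98 ± 0.23, adjusted p = 0.0265 and Oas1a of -1.74 ± 0.47, adjusted p = 0.0424. The library values given above show the form of this difference. For Ifi27l2a and Ifitm3, HSC-derived replicates 1 and 2 lay just above the monocyte-derived range and the shallow replicates 3 and 4 farther above it.

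Over all 41 genes, 20 had both shallow HSC-derived libraries above both deeper ones, 3 had both below, and 18 were mixed. The same count was not made over all genes tested, so this split is not shown to be particular to these 41. Without the shallow libraries none of the 3 calls was kept: Ifi27l2a had -0.38, adjusted p = 0.394, Ifitm3 -0.39, adjusted p = 0.556 and Oas1a -1.20, adjusted p = 0.335. Leaving out single libraries gave 0 to 6 called members, with 0 without HSC-derived replicate 3 or 4 or monocyte-derived replicate 1 or 4, 1 without monocyte-derived replicate 2, and 6 without HSC-derived replicate 1. The shallow libraries also had the highest ribosomal share among microglia, and their T and NK cell markers summed to 0 and 27.4 CPM against 79.3 and 168 in the deeper HSC-derived libraries. The part of depth in these levels was not tested.

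**Figure D3:**
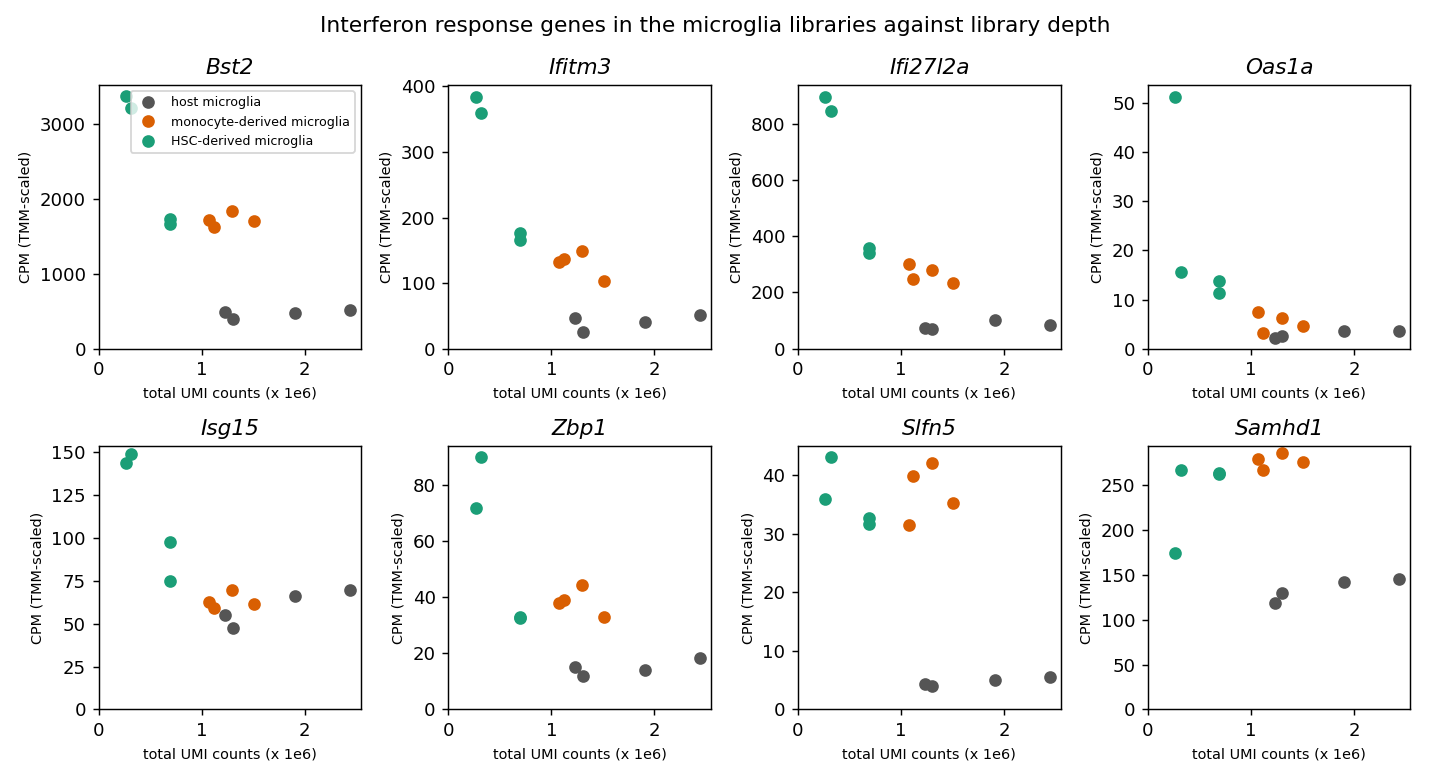
CPM of 8 genes (vertical axes, from 0) against total UMI counts (horizontal axes, in units of 1e6) in the 12 microglia libraries, coloured by origin. The 2 shallow HSC-derived libraries lie at the upper left for Bst2, Ifitm3, Ifi27l2a, Isg15 and Zbp1, whereas for Slfn5 and Samhd1 host libraries lie apart from all others at any depth.

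Leptomeningeal macrophages were set against microglia of the same origin. In monocyte-derived cells 29 of the 41 genes were higher in the leptomeninges and none was lower, against 19% of all genes called higher and 16.3% lower, with a median log2 fold change of 0.77 over the 41 and -0.04 over all genes. In HSC-derived cells 20 were higher and 1 was lower, against 5.75% and 3.97%, with medians of 0.93 and -0.06. These comparisons share no library. Called higher in both were 17 genes, which is 58.6% of the 29 and 85.0% of the 20. Over all genes tested, 568 were called higher in both, which is 28.2% of 2012 and 93.3% of 609. With library totals in place of TMM scaling, 7 monocyte-derived calls were lost: Ifi204, Oasl2, Samhd1, Irgm1, Ifi35, Ly6e and Xaf1 (log2 fold changes 0.19 to 0.40, adjusted p from 0.0581 to 0.273). The 4 HSC-derived calls lost were Ddx58, Ifit1, Isg20 and Ifi47. The median of all genes was then -0.34 and -0.15.

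The HSC-derived leptomeningeal group has 2 libraries, 1 of them the shallowest of all. Leaving out its replicate 1, its replicate 2 or the 3 shallow libraries left 1 library in the group, and fewer members were then called higher. Bst2, the 1 lower member, had a log2 fold change of -0.67 without replicate 1, and its call was not kept. Without replicate 1 the median log2 fold change of all genes was -0.39, against -0.06 in the full fit. Values given below without replicate 1 were not corrected for this shift. Fitted on these 2 groups alone, 5 members were called. Other cell types moved with the comparison: in monocyte-derived leptomeningeal libraries neutrophil markers summed to 1109 to 2714 CPM, T and NK cell markers to 465 to 989 and monocyte markers (9 of 10 in the table) to 1459 to 1930, against 11.5 to 52.7, 122 to 176 and 189.6 to 277 in monocyte-derived microglia. In HSC-derived leptomeningeal libraries the neutrophil markers summed to 3.44 to 30.8 CPM, with 5 of 7 (among them Camp, Ltf and Ngp) at 0 in each, and T and NK cell and monocyte markers to 285 to 515 and 778 to 1347. Endothelial markers summed to 675 to 969 CPM in monocyte-derived and 1024 to 1623 in HSC-derived leptomeningeal libraries, above the ranges in microglia of the same origin, with 1 of 4 tested called higher in each comparison. Markers of astrocytes, neurons and oligodendrocytes summed to 129 to 154 CPM, above monocyte-derived microglia, and 189 to 431, overlapping with HSC-derived microglia. Plasmacytoid dendritic cell markers (8 in the table) summed to 836 to 999 CPM in monocyte-derived leptomeningeal libraries, with none, Ly6d included, at 0. In HSC-derived ones they summed to 735 to 770 CPM, with 0 to 3 of the 8 at 0. Both ranges lay below those in microglia of the same origin. The part of these cell types and of border macrophage identity was not tested. Site and preparation cannot be told apart, since the leptomeningeal cells were washed off after collagenase and the microglia were taken from further digested brain over Percoll.

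The membrane factors Ifitm2 and Ifitm3 differed most between compartments in monocyte-derived cells. Ifitm2 was at 351, 325, 275 and 297 CPM in monocyte-derived and 489.6 and 277 in HSC-derived leptomeningeal macrophages, 7.96-fold and 6.25-fold the level in microglia of the same origin (2.99 ± 0.18, adjusted p = 4.10e-15 and 2.64 ± 0.23, adjusted p = 3.82e-10). Ifitm3 was at 916, 988, 1144 and 860.1 and 1082 and 1271 CPM (2.91 ± 0.23, adjusted p = 1.13e-10 and 2.19 ± 0.27, adjusted p = 1.80e-06). All 6 leptomeningeal libraries lay above all 12 microglia libraries for both genes. Bst2 did not follow: at 1369, 1736, 1246 and 1275 CPM in monocyte-derived leptomeningeal cells it did not pass (-0.29 ± 0.20, adjusted p = 0.267), and at 1196 and 1656 in HSC-derived ones it was lower than in HSC-derived microglia (-0.81 ± 0.26, adjusted p = 0.0378). This lower call was lost in 7 of 14 alternatives, among them without the shallow libraries (-0.49, adjusted p = 0.102), without leptomeningeal replicate 1 (-0.67, adjusted p = 0.273) and without HSC-derived microglia replicate 3 (-0.65, adjusted p = 0.0699) or 4 (-0.69, adjusted p = 0.087). Without leptomeningeal replicate 1 the HSC-derived value of Ifitm2 was 2.01, adjusted p = 0.000315.

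**Figure D4:**
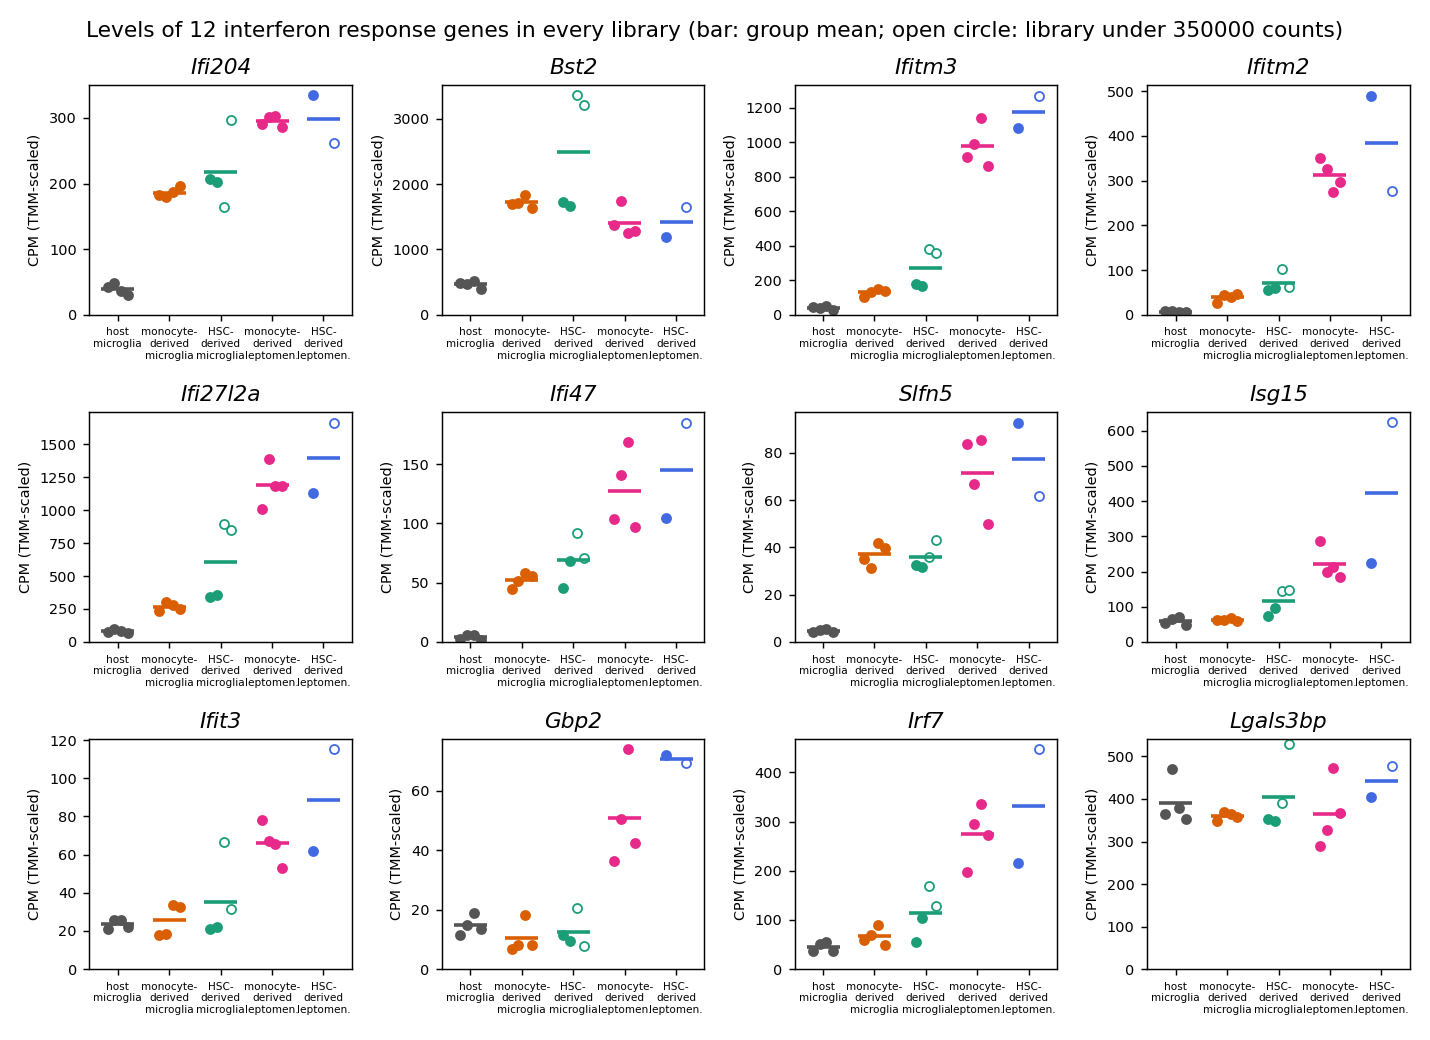
Levels of 12 genes in CPM (vertical axes, from 0) in every library of the 5 groups (horizontal axes), with bars at group means and open circles for the 3 libraries under 350000 counts. Ifitm2, Ifitm3, Gbp2 and Ifi27l2a are highest in the leptomeninges, Bst2 is highest in the shallow HSC-derived microglia, and Lgals3bp overlaps across all groups.

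Gbp2, Ifit3, Ifit1, Isg20 and Ifih1 were higher in both leptomeningeal groups; none of these 5 had passed against host, in comparisons that share the donor-derived microglia libraries. Gbp2, whose product attacks pathogen vacuoles, was at 36.5, 50.5, 74 and 42.4 CPM in monocyte-derived and 72.1 and 69.3 in HSC-derived leptomeningeal macrophages (2.29 ± 0.26, adjusted p = 1.53e-08 and 2.66 ± 0.44, adjusted p = 5.97e-05), above every microglia library. Ifit3 was at 78, 67, 65.7 and 53.2 and 61.8 and 116 CPM (1.37 ± 0.22, adjusted p = 6.28e-06 and 1.39 ± 0.38, adjusted p = 0.0154), and the lowest HSC-derived leptomeningeal value lay under the highest HSC-derived microglia value. Ifit1 (1.09, adjusted p = 0.000144 and 1.31, adjusted p = 0.0318), Isg20 (1.56, adjusted p = 6.08e-07 and 1.12, adjusted p = 0.0455) and Ifih1 (0.85, adjusted p = 0.000483 and 1.24, adjusted p = 0.0185) passed in both as well. The HSC-derived call was lost without leptomeningeal replicate 1 for each of these 5 genes: Gbp2 then had 2.54, adjusted p = 0.0602, Ifit3 1.93, adjusted p = 0.0509, Ifit1 1.88, adjusted p = 0.0724, Ifih1 1.04, adjusted p = 0.41 and Isg20 -0.24, adjusted p = 0.899. Ifit1 and Ifit3 also lost it without leptomeningeal replicate 2 (1.04, adjusted p = 0.161 and 1.13, adjusted p = 0.0976) and without HSC-derived microglia replicate 1 or 2 (adjusted p from 0.068 to 0.0968), and Ifit1 without the shallow libraries (1.17, adjusted p = 0.0778). Isg20 lost it without HSC-derived microglia replicate 1, 2 or 3 (adjusted p from 0.0565 to 0.132). Whether these genes differ more between compartments than between donor and host was not tested.

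Among the factors, Irf7 was at 197, 295, 337 and 272 CPM in monocyte-derived and 215 and 447 in HSC-derived leptomeningeal macrophages (2.03 ± 0.27, adjusted p = 1.10e-05 and 1.54 ± 0.39, adjusted p = 0.0152), above every microglia library. Without HSC-derived leptomeningeal replicate 2 the latter was 1.09, adjusted p = 0.126. Stat2, at 126, 133, 144 and 120.5 and 117 and 108 CPM, did not pass (0.36, adjusted p = 0.103 and 0.39, adjusted p = 0.461), and neither did Irf9, at 134, 113, 108 and 98.9 and 73.9 and 15.4 CPM, whose last value rests on 2 counts (0.02, adjusted p = 0.948 and -0.47, adjusted p = 0.363). Isg15 was at 287, 199, 212 and 184 and 223 and 624 CPM (1.80 ± 0.24, adjusted p = 3.84e-06 and 1.80 ± 0.33, adjusted p = 0.000824), again above every microglia library; without HSC-derived leptomeningeal replicate 1 the latter was 2.46, adjusted p = 1.03e-06, and without replicate 2 1.08, adjusted p = 0.00928. Usp18, at 91.3, 67, 71.4 and 51.8 and 80.7 and 100.1 CPM, passed in monocyte-derived cells (0.92, adjusted p = 0.00019) and not in HSC-derived ones (0.64, adjusted p = 0.216).

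The sensor Zbp1 was at 108, 119, 165 and 114 CPM in monocyte-derived and 92.8 and 269.6 in HSC-derived leptomeningeal macrophages (1.72 ± 0.25, adjusted p = 9.37e-06 and 1.61 ± 0.40, adjusted p = 0.0112; the latter 2.43, adjusted p = 0.000543 without HSC-derived leptomeningeal replicate 1 and 0.99, adjusted p = 0.106 without replicate 2). Ifi204, at 290.2, 301, 303 and 287 and 335 and 262 CPM, passed in monocyte-derived cells (0.67, adjusted p = 0.000369) and not in HSC-derived ones (0.51, adjusted p = 0.114). Ddx58 showed the reverse, with 0.27, adjusted p = 0.191 in monocyte-derived and 1.08, adjusted p = 0.0163 in HSC-derived cells, the latter lost without leptomeningeal replicate 1 (0.87, adjusted p = 0.444) and without HSC-derived microglia replicate 1 (1.01, adjusted p = 0.0555).

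Oasl2 was at 97.7, 109, 108 and 88.8 and 141 and 162 CPM (0.61 ± 0.17, adjusted p = 0.00366 and 1.30 ± 0.27, adjusted p = 0.00096), and Oas1a at 17.6, 15.4, 17.2 and 11.4 and 10.3 and 53.9 CPM, the last 2 values from 6 and 7 counts (1.51 ± 0.39, adjusted p = 0.00258 and 0.18 ± 0.61, adjusted p = 0.917). Of the 11 antiviral effectors 8 were higher in monocyte-derived and 6 in HSC-derived leptomeningeal macrophages. Samhd1 and Ifit2 were among the former alone (0.58, adjusted p = 0.000732 and 0.86, adjusted p = 0.000951) and Trim30a among the latter alone (0.97, adjusted p = 0.0103). Without HSC-derived leptomeningeal replicate 1, the HSC-derived calls of Oasl2 (1.36, adjusted p = 0.0675), Oas2 (0.71, adjusted p = 0.365) and Trim30a (0.82, adjusted p = 0.296) were lost. Mx1 did not pass in either (0.44, adjusted p = 0.0542 and 0.73, adjusted p = 0.221). Rsad2 varied widely between libraries, with 61.8, 17.6, 23 and 27.6 CPM in monocyte-derived and 58.4 and 0 in HSC-derived leptomeningeal macrophages, from 88, 16, 36 and 41 and 34 and 0 counts, and did not pass (0.77, adjusted p = 0.137 and 1.60, adjusted p = 0.185). The 0 of the shallow library allows up to 23.1 CPM, the worth of 3 counts.

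Ifi47 was at 104, 141, 169 and 96.9 and 105 and 185 CPM (1.28 ± 0.19, adjusted p = 2.47e-06 and 0.99 ± 0.31, adjusted p = 0.038), and the HSC-derived call was lost without either leptomeningeal library (1.44, adjusted p = 0.0625 without replicate 1, 0.72, adjusted p = 0.228 without replicate 2) and without HSC-derived microglia replicate 1 (0.78, adjusted p = 0.141) or replicate 2 (1.04, adjusted p = 0.0598), or without the shallow libraries (0.88, adjusted p = 0.1). Igtp and Irgm1 passed in monocyte-derived cells (0.76, adjusted p = 0.000634 and 0.61, adjusted p = 0.00216), Gbp7 in HSC-derived cells (1.19, adjusted p = 0.00193) and Gbp3 in neither. Slfn2 was at 316, 342, 390.2 and 309.6 and 349 and 223 CPM (1.56 ± 0.16, adjusted p = 8.85e-10 and 1.25 ± 0.22, adjusted p = 0.000121), and Slfn5 at 83.6, 67, 85.4 and 49.8 and 92.8 and 61.6 CPM (0.95 ± 0.17, adjusted p = 3.51e-05 and 1.30 ± 0.30, adjusted p = 0.00287). All leptomeningeal libraries lay above all microglia libraries for both Schlafen genes. The HSC-derived calls of Slfn2 (0.73, adjusted p = 0.241), Slfn5 (0.76, adjusted p = 0.473) and Gbp7 (0.70, adjusted p = 0.473) were lost without leptomeningeal replicate 1. Slfn8, which lies between them on chromosome 11, did not pass (0.10, adjusted p = 0.636 and -0.10, adjusted p = 0.87).

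Ifi27l2a was at 1011, 1386, 1180 and 1186 and 1130 and 1664 CPM (2.16 ± 0.25, adjusted p = 4.92e-07 and 1.22 ± 0.30, adjusted p = 0.00956; the latter 0.96, adjusted p = 0.137 without HSC-derived leptomeningeal replicate 2), and every leptomeningeal library lay above every microglia library. Ifi44 was at 52.7, 82.4, 98.2 and 70.00 and 101 and 177 CPM (0.90 ± 0.19, adjusted p = 0.000277 and 1.12 ± 0.30, adjusted p = 0.0122; the latter 0.86, adjusted p = 0.107 without that library and 0.89, adjusted p = 0.0542 without the shallow libraries), with no overlap between compartments within an origin. Rtp4, Xaf1 and Ifi35 passed in monocyte-derived cells alone (0.82, adjusted p = 4.43e-05, 0.60, adjusted p = 0.0279 and 0.72, adjusted p = 0.000426), as did Ly6e (0.52, adjusted p = 0.0247) and Parp14 (0.75, adjusted p = 9.95e-05). The Xaf1 call was lost in 7 of 16 alternatives, among them leaving out monocyte-derived microglia replicate 1, 3 or 4 or leptomeningeal replicate 2 or 3 (adjusted p from 0.0541 to 0.12). The Ly6e call was lost in 6 of 16, among them leaving out microglia replicate 1, 2 or 4 or leptomeningeal replicate 2 or 3 (adjusted p from 0.0545 to 0.141). Lgals3bp was at 289, 327, 472 and 368 and 405 and 478 CPM, a range that overlapped with that in microglia (0.02, adjusted p = 0.945 and 0.12, adjusted p = 0.809). Irf9, Rsad2 and Lgals3bp were the 3 members called in none of the 7 comparisons.

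**Figure D5:**
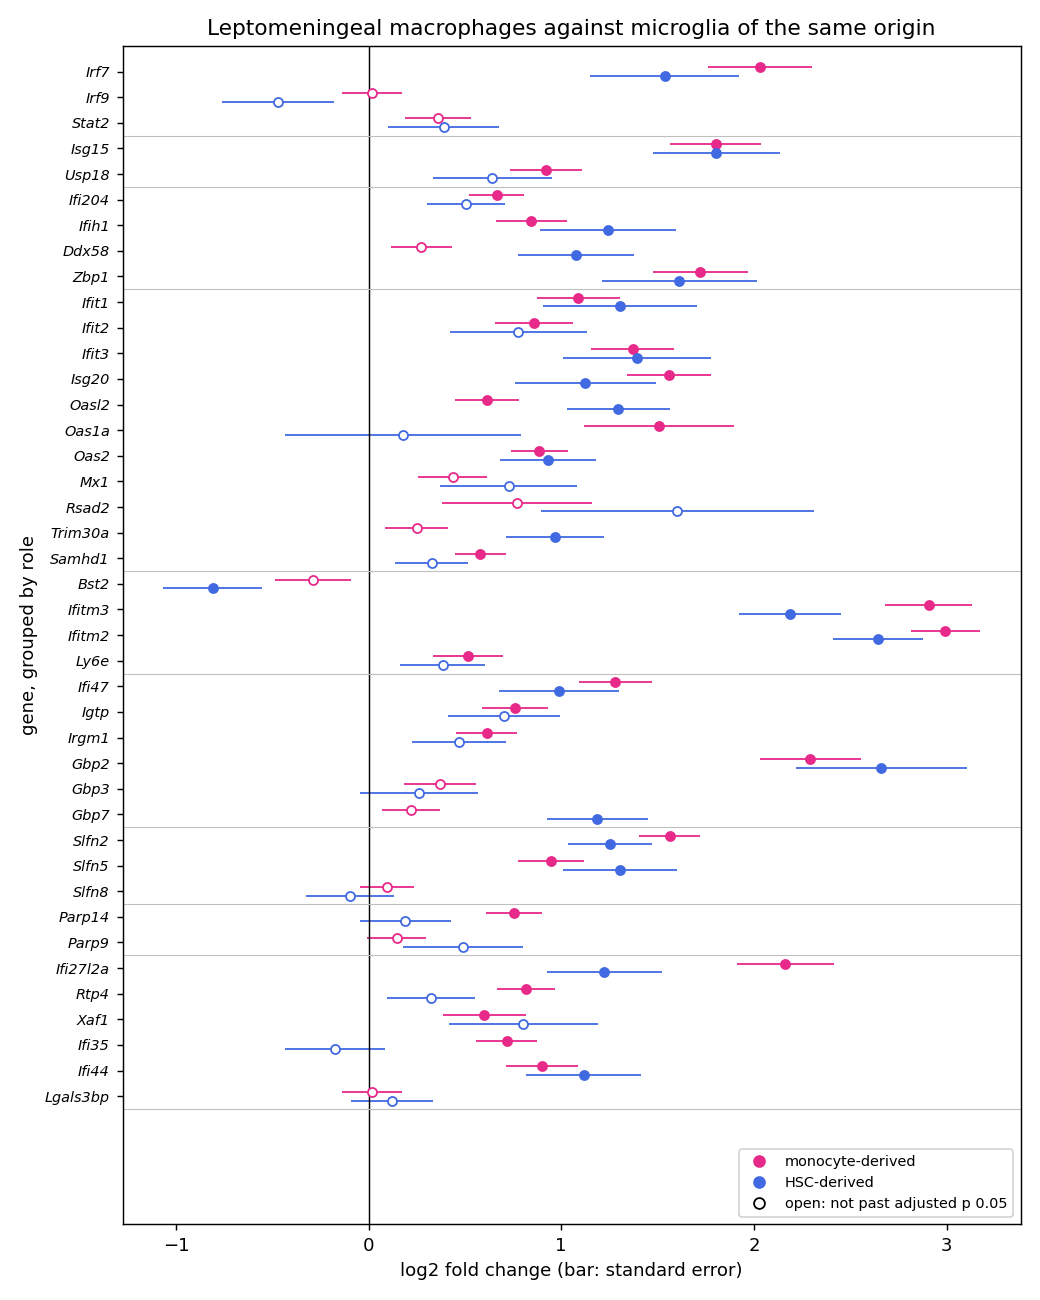
Log2 fold change of leptomeningeal macrophages against microglia of the same origin (horizontal axis, bars are standard errors) for the 41 genes (vertical axis, by role). Filled points passed the adjusted p threshold of 0.05; Ifitm2, Ifitm3 and Gbp2 lie farthest right in both origins, and Bst2 is the gene with a filled point left of 0, at -0.81 in HSC-derived cells.

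In the leptomeninges, monocyte-derived and HSC-derived macrophages differed in 0 of the 41 genes by edgeR and in 0 of the 29 to which DESeq2 gave an adjusted p, with 7 at an unadjusted p under 0.05 in edgeR, against 0.16% of all genes called higher and 0.142% lower. The median log2 fold change was -0.20 over the 41 and 0.07 over all genes. The largest differences among the 7 were in Irf9 (0.93 ± 0.27, adjusted p = 0.149) and Trim30a (-0.78 ± 0.23, adjusted p = 0.168). With 2 HSC-derived libraries the comparison could not place most of these genes closely: the standard error was 0.30 for Isg15 (-0.76, adjusted p = 0.354). Leaving out HSC-derived replicate 1 left 1 library in that group, and the median log2 fold change of all genes was then 0.46.

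The interaction of origin with compartment, which asks whether the step from microglia to leptomeninges differs between monocyte-derived and HSC-derived cells, called 0 members by edgeR, with 6 at an unadjusted p under 0.05. DESeq2 gave an adjusted p to 8 of the 41 and called 0 of these. Of all genes 0.0566% were called with a larger step in monocyte-derived cells and 0% with a smaller one. So genes called in 1 origin alone, such as Ddx58, Trim30a and Gbp7 in HSC-derived cells, were not shown to differ between origins (adjusted p for the interaction 0.548, 0.544 and 0.356).

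Genes around the response were read from lists of pathway genes. Of 16 interferon genes 1, Ifng, was in the table, and it was at 2.27 ± 1.09 CPM in host, 5.02 ± 0.41 in monocyte-derived and 3.69 ± 3.61 in HSC-derived microglia (SD, n = 4 each), 11.7 ± 2.74 in monocyte-derived (n = 4) and 4.29 ± 6.07 in HSC-derived leptomeningeal macrophages (n = 2). It was called in monocyte-derived leptomeningeal against monocyte-derived microglia (1.20 ± 0.42, adjusted p = 0.0244). T and NK cells are known sources of interferon gamma. Their markers, like those of neutrophils and monocytes, were higher in the same comparison, and the part of these cells was not tested. The other 15 interferon genes were not analysed here.

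Both chains of the type I interferon receptor were higher in donor-derived than in host microglia. Of 8 receptor and kinase genes, 3 were called higher and 1 lower in monocyte-derived cells, and 3 higher and 3 lower in HSC-derived cells. Of all genes, 15.1% were called higher and 15.1% lower in the former comparison, and 16.3% and 13.1% in the latter. Ifnar1 had 111 ± 12.4 CPM in monocyte-derived and 85.9 ± 21.1 in HSC-derived against 45.8 ± 5.93 in host microglia (SD, n = 4 each; 1.29 ± 0.15, adjusted p = 2.06e-08 and 0.97 ± 0.18, adjusted p = 6.57e-05). Ifnar2 had 367 ± 6.26 and 319 ± 18.2 against 194 ± 17 CPM (0.91 ± 0.13, adjusted p = 9.29e-07 and 0.72 ± 0.14, adjusted p = 0.000124). Ifngr1, a chain of the interferon gamma receptor, was lower in HSC-derived than in host microglia (-1.12 ± 0.15, adjusted p = 3.05e-07). In monocyte-derived leptomeningeal macrophages 1 of the 8 was higher and 5 were lower than in monocyte-derived microglia, Ifngr2 among them (-1.83 ± 0.28, adjusted p = 2.79e-06). HSC-derived cells had none of the 8 higher and 2 lower in the same comparison. The shares of all genes were 19% higher and 16.3% lower in monocyte-derived cells, and 5.75% and 3.97% in HSC-derived cells. No gene of the 8 was called between origins in either compartment, where at most 1.76% of all genes were called in a given direction.

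Sensors upstream of interferon (11 of 14 in the table) had 1 member higher and 4 lower in monocyte-derived and none higher and 3 lower in HSC-derived against host microglia. Of all genes, 15.1% were called higher and 15.1% lower in the former comparison, and 16.3% and 13.1% in the latter. Tlr3, the endosomal receptor for double-stranded RNA, had 22.1 ± 4.66 CPM in monocyte-derived against 51.1 ± 8.58 in host microglia (-1.22 ± 0.22, adjusted p = 3.95e-05). In the leptomeninges 3 sensors were higher and 5 lower in monocyte-derived cells, and none higher and 1, Sting1, lower in HSC-derived cells (-0.90 ± 0.21, adjusted p = 0.00439). The shares of all genes were 19% higher and 16.3% lower in monocyte-derived cells, and 5.75% and 3.97% in HSC-derived cells.

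Genes best known as targets of interferon gamma (10 in the table) rose where they were called. These were 4 and 6 of them in monocyte-derived and HSC-derived against host microglia and 9 and 5 in the 2 leptomeningeal comparisons, with none lower. Of all genes, 15.1%, 16.3%, 19% and 5.75% were called higher in the same order, and 15.1%, 13.1%, 16.3% and 3.97% lower. Ciita, the switch gene of MHC class II, had 1.94 ± 2.74 CPM in host, 17.9 ± 5.19 in monocyte-derived and 41.2 ± 9.02 in HSC-derived microglia, 242 ± 37.3 in monocyte-derived and 179 ± 41.4 in HSC-derived leptomeningeal macrophages. It was called in all 4 (2.80, adjusted p = 3.14e-05; 4.11, adjusted p = 2.17e-07; 3.76, adjusted p = 1.69e-10; 1.92, adjusted p = 0.00129). Iigp1, an immunity-related GTPase gene, had 12.8 ± 5.82, 48.1 ± 13, 32.7 ± 10.4, 160.5 ± 58.6 and 260.1 ± 56.9 CPM in the same order of groups. Its monocyte-derived value against host was 1.81 ± 0.32, adjusted p = 0.000163. Of the 4 feedback genes in the table, Socs3, an inhibitor of JAK signalling, was higher in leptomeningeal cells of both origins (3.09, adjusted p = 4.34e-07 and 1.91, adjusted p = 0.00343), and so was the transcription factor gene Irf4 (2.58, adjusted p = 1.57e-07 and 2.33, adjusted p = 0.00632). Irf1, the factor that many interferon gamma targets need, was higher in monocyte-derived leptomeningeal macrophages (1.40 ± 0.16, adjusted p = 1.44e-08). Other factor genes of the IRF family were lower. Irf5 was lower in HSC-derived than in host microglia (-0.76 ± 0.14, adjusted p = 0.000108). Irf8 was lower in HSC-derived leptomeningeal macrophages than in HSC-derived microglia (-0.89 ± 0.21, adjusted p = 0.00383).

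Several listed genes have close copies in the genome, among them Ifi204, the Ifitm, Ifit, Oas, Slfn, Gbp and Trim30 families, and how the authors' counting shared reads between copies is not given in the sources used here, so that values of single family members are uncertain to that extent.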

How the data were processed

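The authors deposited UMI counts per gene for each library, made by MARS-seq. The build is mm10, per the submitters' processing notes; which aligner and counter were used, and whether genes were filtered, is not given in the sources used here. Counts came from 18 libraries of 5 groups. Another 2 libraries in the table matched no described sample and were not used. The members and the gene lists were chosen with earlier results of these data known.

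Counts were fitted in 1 edgeR model (4.0.16, R 4.3.3) with a group term: filterByExpr (10597 genes kept), TMM scaling, robust quasi-likelihood tests, two-sided, with Benjamini-Hochberg adjustment over all genes and a threshold of 0.05. Standard errors were derived from the log2 fold change and the F statistic. The code was tested on simulated data.

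Library values are printed for a fixed set of 15 genes and, per comparison, the 4 called members with the smallest p and at least 20 CPM in the higher group. Pathway genes are named by smallest p, at most 6 per comparison, with Ifng, the single interferon gene, added after its values were seen; the genes plotted against depth were also chosen so. Alternatives were other scalings, filters, DESeq2 (1.42.0), fewer groups, a replicate block and left-out libraries. Gene positions are from GENCODE on GRCm38. Counting error sets the precision: 3 counts are 1.05 to 23.1 CPM.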

Additional observations from a re-analysis of the deposited data

Results flagged for a closer look

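Among the 20 genes with library values, 80 groups of 4 libraries were examined for a single library far from the others (Dixon's test at 95%), and 3 were found; chance alone gives about 1 in 20 groups. In HSC-derived microglia replicate 3, Ifitm2 was at 102 CPM against 55.3, 60.5 and 62.6 in the other 3 libraries, and Oas1a at 51.2 CPM against 11.3, 13.7 and 15.7. That library held 264795 counts, so the values rest on 20 and 10 counts. In monocyte-derived microglia replicate 3, Gbp2 was at 18.2 CPM against 6.92, 7.98 and 8.28, from 26 counts.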

How the results depend on the processing

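The number of called members stayed within 1.5 times its value in every alternative for monocyte-derived (21) and HSC-derived (24) against host microglia and for monocyte-derived leptomeningeal macrophages against microglia (29). For monocyte-derived against HSC-derived microglia the 3 calls became 1 with library totals, 0 with only the groups compared and 0 without the shallow libraries, and 0 to 6 when single libraries were left out. Monocyte-derived against HSC-derived leptomeningeal macrophages went from 0 to between 0 and 2. HSC-derived leptomeningeal macrophages against microglia (21) gave 5 with only the groups compared, and 8 to 21 without single libraries; there Isg20 turned to -0.24 (adjusted p = 0.899) without leptomeningeal replicate 1 and was 1.39 without replicate 2. The cause was not tested; fewer samples entered the fit in these alternatives, apart from library totals. Library totals moved the median log2 fold change of all genes to -0.28 for HSC-derived against host microglia, -0.34 for monocyte-derived and -0.15 for HSC-derived leptomeningeal macrophages against microglia, and 0.27 for monocyte-derived against HSC-derived microglia. Leaving out HSC-derived leptomeningeal replicate 1 moved it to -0.39 for HSC-derived leptomeningeal macrophages against microglia and to 0.46 for monocyte-derived against HSC-derived leptomeningeal macrophages. Shares of all genes called were not counted in the alternatives.

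Deviations of same-numbered libraries from their group means correlated above 0.1 in 1 of 32 pairs (median -0.00027), and those of other libraries in 3 of 96. In the group of 2 libraries these deviations mirror each other. The check cannot tell whether libraries came from the same mouse. With a replicate block the called members were 21, 25, 3, 0, 29, 19 and 0, in the order monocyte-derived and HSC-derived against host, origins in microglia, origins in leptomeninges, compartments in monocyte-derived and HSC-derived cells, and interaction. Depth limits the HSC-derived groups most, where 3 counts reach 23.1 CPM.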
